A study of Mus musculus with 2 samples.

Results

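The genes described here are 29 enzymes and regulators of cholesterol and fatty acid synthesis, taken by symbol from the 32285 genes of each count table. They were sorted into 4 groups by textbook role. The mevalonate arm held 7 genes (Acat2, Hmgcs1, Mvk, Pmvk, Mvd, Idi1 and Fdps), and the sterol arm, from squalene to cholesterol, held 11 (Fdft1, Sqle, Lss, Cyp51, Tm7sf2, Msmo1, Nsdhl, Hsd17b7, Ebp, Sc5d and Dhcr7). SREBP control and sterol transport held 4 (Insig1, Srebf1, Srebf2 and Stard4), and the fatty acid arm held 7 (Acaca, Fasn, Elovl6, Scd1, Scd2, Fads1 and Fads2). Their unique molecular identifiers (UMIs, counted transcripts) were added up within each cell class and divided by all UMIs of that class (CPM, counts per 1000000 UMIs).

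The libraries came from mouse tumours that were digested and enriched for CD45-positive cells before droplet capture. Control tumours gave 1 library and tumours treated with Motolimod, an agonist of Toll-like receptor 8, gave 1, with 5 mice named for each group. The labels give neither the tumour model, the strain, the age, the dose, the vehicle nor whether mice were pooled, so the spread between mice is not known. No test was possible with a single library on each side, and each ratio below is Motolimod over Control with an exact 95% interval that covers counting error only. A change was called at 1.5-fold or more in either direction, in genes with at least 20 UMIs over both libraries.

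Cholesterol is built from acetyl-CoA through mevalonate, farnesyl diphosphate and squalene, and the same acetyl-CoA feeds fatty acid synthesis through acetyl-CoA carboxylase and fatty acid synthase. When membrane sterol is low, SREBP transcription factors leave the endoplasmic reticulum, where INSIG proteins hold them, and switch on most of these genes. When sterol is in excess, oxysterols act on LXR receptors, which induce sterol efflux genes such as Abca1 and Abcg1. In macrophages, which take up lipid from dying cells, this balance is closely tied to the state of the cell.

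Promoter windows of 22 of the 29 genes were matched in RefSeq (build GRCm38.p6), each from 250 bases before to 50 bases after a transcription start. No window was matched for Fdps, Fdft1, Sqle, Stard4, Scd1, Scd2 and Fads1. Motifs were searched on both strands: a sterol regulatory element written TCACNCCAC, the NF-Y box CCAAT, and the E-box CACGTG, none of which overlaps another in its letters. The NF-Y box was in 19 of the 27 windows of these genes (70.4%) and in 37.4% of all 32851 windows of the same length. The E-box was in 4 of 27 windows (14.8%) against 7.15% of all, and the sterol element in 1 of 27, that of Hmgcs1 (3.70%), against 1.24%. A match is a description of the letters only.

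A few windows are printed because most genes of the sterol pathway were lower together in the myeloid cells described further on. Capitals mark these matches, read 5′ to 3′ on the gene's strand. They stand for 1 gene of each role: HMG-CoA synthase (Hmgcs1, chr13:119690101-119690400, plus strand), methylsterol monooxygenase (Msmo1, chr8:64733529-64733828, minus strand), the SREBP anchor Insig1 (chr5:28071162-28071461, plus strand) and fatty acid synthase (Fasn, chr11:120824498-120824797, minus strand).
Hmgcs1: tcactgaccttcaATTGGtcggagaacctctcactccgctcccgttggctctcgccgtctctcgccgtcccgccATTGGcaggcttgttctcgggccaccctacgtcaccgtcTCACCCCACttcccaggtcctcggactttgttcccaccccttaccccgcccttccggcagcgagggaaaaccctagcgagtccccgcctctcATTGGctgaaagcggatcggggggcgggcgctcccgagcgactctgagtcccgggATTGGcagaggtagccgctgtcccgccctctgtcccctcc
Msmo1: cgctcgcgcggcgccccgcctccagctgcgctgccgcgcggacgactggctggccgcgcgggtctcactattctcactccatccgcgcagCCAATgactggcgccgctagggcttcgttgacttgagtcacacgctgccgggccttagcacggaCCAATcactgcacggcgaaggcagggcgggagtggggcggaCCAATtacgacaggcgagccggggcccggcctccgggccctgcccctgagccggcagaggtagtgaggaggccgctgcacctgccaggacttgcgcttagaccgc
Insig1: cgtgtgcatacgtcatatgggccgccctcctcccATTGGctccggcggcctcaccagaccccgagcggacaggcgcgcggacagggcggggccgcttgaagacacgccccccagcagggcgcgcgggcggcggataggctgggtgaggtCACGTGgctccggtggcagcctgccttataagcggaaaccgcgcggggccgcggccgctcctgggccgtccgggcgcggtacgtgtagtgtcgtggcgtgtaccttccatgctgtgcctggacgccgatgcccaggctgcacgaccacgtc
Fasn: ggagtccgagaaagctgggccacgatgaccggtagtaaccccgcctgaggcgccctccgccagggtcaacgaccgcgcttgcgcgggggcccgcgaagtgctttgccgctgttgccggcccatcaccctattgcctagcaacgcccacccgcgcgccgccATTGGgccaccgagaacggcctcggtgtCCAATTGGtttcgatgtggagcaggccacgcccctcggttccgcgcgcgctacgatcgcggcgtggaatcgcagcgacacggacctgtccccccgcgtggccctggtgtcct
Hmgcs1 carried the sterol element and 4 NF-Y boxes, Msmo1 carried 3 NF-Y boxes, and Insig1 carried 1 NF-Y box and 1 E-box. In Fasn 2 of the 3 NF-Y boxes overlapped on opposite strands.

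Cells were sorted into classes by summed marker genes. Of the barcodes that passed the filters (7484 Control, 9314 Motolimod), 4435 and 4421 were macrophages or monocytes, 503 and 2730 neutrophils, 269 and 87 dendritic cells, 325 and 410 T cells, and 704 and 75 tumour or epithelial cells. Droplets with markers of more than 1 lineage (13.2% and 11.9%) were left out. The Control library was the deeper, with a median of 14055 UMIs per passed barcode against 3742.5. Of all barcodes, 113 had the same sequence in both libraries. All macrophage, neutrophil and T cell markers were detected in their own classes. In the tumour class Krt8, Krt18, Krt19, Epcam and Cldn4 were detected in both libraries, Cldn7 was at 0 in both and Krt7 at 0 in Motolimod. Fibroblast genes reached 240 and 229 CPM in that class, so the name rests on its keratins.

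The summed level of the 29 genes was lower in Motolimod in macrophages, neutrophils, dendritic cells and T cells, and nearly equal in tumour cells. Tumour or epithelial cells had the highest level in both libraries, 2049 CPM in Control and 2094 CPM in Motolimod (ratio 1.02, interval 0.999 to 1.05). Macrophages had 741 and 498 CPM (0.672, 0.661 to 0.684). T cells had 862 and 530 CPM (0.615, 0.576 to 0.657), dendritic cells 1028 and 810 CPM (0.788, 0.731 to 0.849), and neutrophils 511 and 212 CPM (0.415, 0.379 to 0.454). Neutrophils had the lowest level of the 5 classes in both libraries. In these sums fewer transcripts per cell and fewer cells of a high-level kind cannot be told apart.

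**Figure D1:**
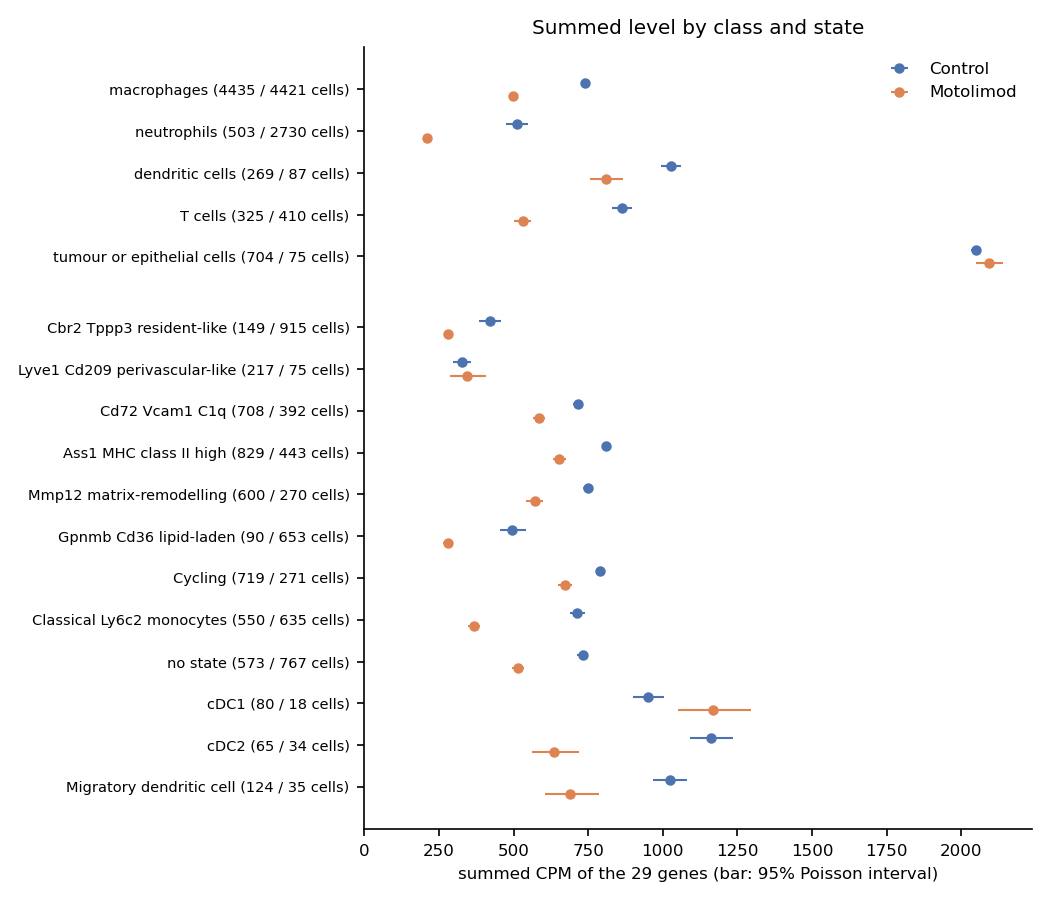
Summed CPM of the 29 genes (x axis, from 0) in 5 cell classes (upper block) and in macrophage states and dendritic cell kinds (lower block). Points are libraries, Control in blue and Motolimod in orange, bars are 95% Poisson intervals, and cell numbers stand in brackets. Tumour cells lie near 2000 CPM in both libraries, and Motolimod lies to the left of Control in the other 4 classes.

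In macrophages the summed level was lowest relative to Control in the mevalonate arm, followed by the sterol arm. The mevalonate arm summed to 286 CPM in Control and 154 CPM in Motolimod (0.540, 0.524 to 0.556), and the sterol arm to 247 and 157 CPM (0.636). Fdps alone was 116 and 49.5 CPM of the mevalonate arm, and Ebp 87.6 and 62.7 CPM of the sterol arm. Sums of the arms without these genes are not given here, so the order of the arms may depend on them. SREBP control and sterol transport summed to 122 and 104 CPM (0.848). The fatty acid arm held nearly the same sum, 86.2 and 83.3 CPM (0.966, 0.923 to 1.01). Scd2, which was higher in Motolimod, made up 32.9 and 40.6 CPM of that sum. Acaca was also above 1, and Fasn, Fads1, Fads2, Scd1 and Elovl6 had ratios below 1. Of the 29 genes, all past the minimum, 13 were at least 1.5-fold lower, against 9.38% of all 13306 genes tested in macrophages. None was at least 1.5-fold higher, against 12.8% of all genes. Their median log2 ratio was -0.51, beside 0.05 over all genes tested, and 26 of the 29 lay below 0.

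Fdps, which makes farnesyl diphosphate at the branch to sterols and prenylated proteins, had the lowest ratio. Its locus is chr3:89093588-89101959 on the minus strand (mm10). Its level was 116 CPM in Control and 49.5 CPM in Motolimod macrophages (0.426, 0.404 to 0.449), and its share of the UMIs of the 29 genes was 15.7% and 9.94%. With every cell thinned to 1000 UMIs, 8.76% of Control and 2.90% of Motolimod macrophages had an Fdps UMI (49.7% and 17.4% unthinned), and 39 and 110 shallower cells were left out. No class here lacks Fdps, so no background share was available. In tumour cells the thinned shares were 38.2% and 37.3%.

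The other mevalonate enzymes were lower by less. Mvd, the decarboxylase, had 21.9 and 10.7 CPM (0.488). Its upstream kinases Mvk, with 18.2 and 10.4 CPM (0.572), and Pmvk, with 67.0 and 40.5 CPM (0.604), were also past the threshold. So was Idi1, the isopentenyl diphosphate isomerase, with 24.2 and 15.5 CPM (0.643). The enzymes that start the pathway were not: Hmgcs1 had 33.8 and 23.8 CPM (0.705) and Acat2, the thiolase, 4.74 and 4.01 CPM (0.845, 0.688 to 1.03).

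In the sterol arm the first committed enzyme, squalene synthase (Fdft1), fell from 24.7 CPM in Control to 10.7 CPM in Motolimod (0.434, 0.387 to 0.485), and squalene epoxidase (Sqle) had 14.4 and 7.37 CPM (0.511). Lanosterol synthase (Lss) had 4.50 and 2.65 CPM (0.590), and the demethylase Cyp51 had 31.3 and 18.4 CPM (0.587). Among the enzymes that follow, Msmo1 (0.614), Hsd17b7 (0.635) and the desaturase Sc5d (0.556) were also past the threshold. Nsdhl (0.701), the isomerase Ebp (87.6 and 62.7 CPM, 0.716), Tm7sf2 (0.743) and Dhcr7, which makes cholesterol itself (0.803), were lower without passing it. Tm7sf2 overlaps Vps51 on the same strand, so its count is uncertain. Antisense neighbours of the genes were not separated further.

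The regulators and the sterol carrier were not past the 1.5-fold threshold. Insig1 had a ratio of 0.786, Srebf2, the sterol-sensing SREBP, 44.6 and 35.2 CPM (0.789), and the sterol carrier Stard4 17.8 and 13.2 CPM (0.745). Srebf1, the SREBP gene that LXR can induce, was on the other side, with 21.6 and 25.2 CPM (1.17, 1.07 to 1.27).

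The fatty acid arm was divided. Scd2, a stearoyl-CoA desaturase, had 32.9 CPM in Control and 40.6 CPM in Motolimod (1.23, 1.15 to 1.32), and acetyl-CoA carboxylase (Acaca) 7.44 and 8.73 CPM (1.17, 1.01 to 1.35). Fasn had 18.2 and 12.7 CPM (0.699) and Fads1, a desaturase of polyunsaturated fatty acids, 20.9 and 16.0 CPM (0.765). Fads2 was the 1 gene of the arm at least 1.5-fold lower (2.26 and 1.16 CPM, 0.513, from 149 and 41 UMIs). The elongase Elovl6 had 4.0 and 3.7 CPM (0.925), and Scd1 was nearly absent from macrophages, with 33 and 13 UMIs (0.734, 0.355 to 1.43).

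**Figure D2:**
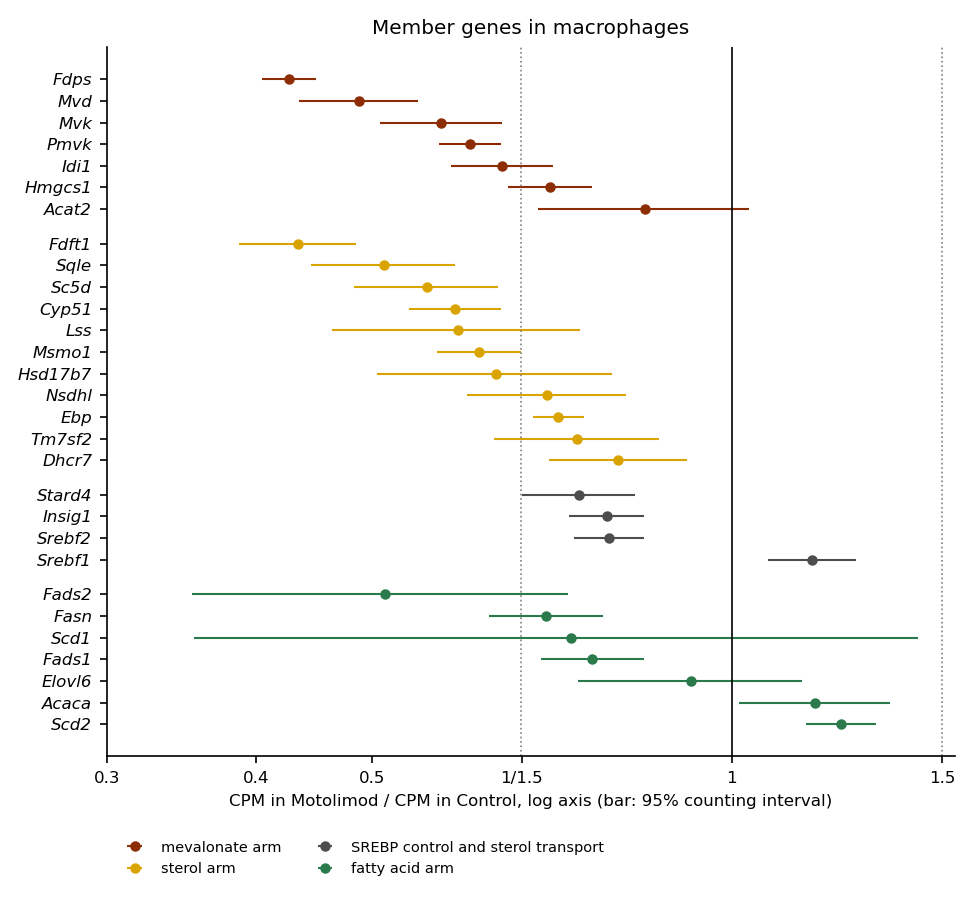
Ratio of CPM in Motolimod to CPM in Control (x axis, log scale) for each of the 29 genes in macrophages, coloured by role. Bars are 95% counting intervals, the solid line marks 1 and dotted lines mark 1.5-fold. The lowest ratios are Fdps (0.426) and Fdft1 (0.434), and the 3 points right of 1 are Srebf1, Acaca and Scd2.

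Cell depth moved with this result. Over 10 bins of UMIs per macrophage, the summed level rose from 361 CPM in the shallowest Control cells to 826 CPM in the deepest, and from 301 to 676 CPM in Motolimod. Motolimod was lower in each of the 10 bins. Median depth was 14039 UMIs in Control and 6193 in Motolimod macrophages. With Motolimod cells weighted to the Control mix of depths the summed ratio was 0.814, and 3 genes were at least 1.5-fold lower in place of 13: Mvd (0.585), Fdft1 (0.590) and Fdps (0.608). The share over all genes under this weighting is not given here. Acaca (1.38), Scd2 and Srebf1 (1.2 each) were above 1 with and without this weighting. Under 5 other alternatives Scd2 stayed above 1, while Acaca (0.988) and Srebf1 (0.998) each fell just below it in 1. Elovl6 (0.925 to 1.31), Acat2 (0.845 to 1.17) and Fasn (0.699 to 1.03) turned from below 1 to above it with the weighting. In the 5 other alternatives Elovl6, Acat2 and Fasn stayed below 1. Depth also differed between the macrophage states described below.

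**Figure D3:**
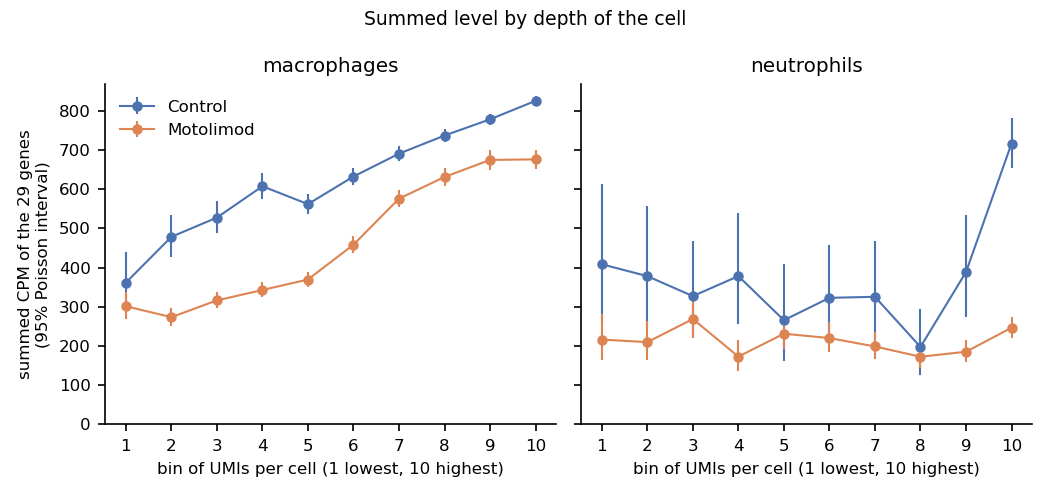
Summed CPM of the 29 genes (y axis, from 0) in 10 bins of UMIs per cell (x axis) in macrophages and neutrophils. Points are Control (blue) and Motolimod (orange), with 95% Poisson intervals. In macrophages both lines climb with depth and Motolimod stays below, and in neutrophils the deepest Control bin stands at 717 CPM.

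Proliferating macrophages were fewer in Motolimod. Cells with cell cycle genes made up 18.1% of Control and 7.26% of Motolimod macrophages, and 10 of the 16 genes of a cell cycle list were at least 1.5-fold lower, against 9.38% of all genes tested. In macrophages without these genes the sums were 726 and 470 CPM (0.647), and in those with them 783 and 661 CPM. The part of cycling cells in the summed ratio was not tested. Keratin and claudin genes of the tumour list, a measure of RNA from tumour cells, stood at 13.1 and 6.35 CPM in macrophages, with Cldn4 and Cldn7 at 0. These are 0.546% and 0.285% of the tumour cells' level, and that share of tumour RNA would carry 11.2 and 5.96 of the 741 and 498 CPM. Macrophage droplets that also passed the tumour gate had been left out beforehand, which holds this share down.

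Macrophages were then divided into 8 states by marker genes that had been chosen with earlier results of these data known. In Control the level was highest in MHC class II-high Ass1 macrophages, at 811 CPM, and in cycling macrophages, at 791 CPM, with overlapping intervals. Mmp12 macrophages followed at 750 CPM, Cd72 Vcam1 macrophages at 716 CPM and Ly6c2 monocytes at 713 CPM, and the intervals of the last pair overlapped. Lower levels were found in lipid-laden Gpnmb Cd36 macrophages (496 CPM), resident-like Cbr2 Tppp3 macrophages (420 CPM) and perivascular-like Lyve1 macrophages (327 CPM). In Motolimod the cycling (672 CPM) and Ass1 macrophages (652 CPM) were again the highest, and their intervals overlapped. The Gpnmb Cd36 (280 CPM) and Cbr2 Tppp3 states (281 CPM) had the lowest values, and their intervals overlapped each other and that of the Lyve1 state (289 to 410 CPM).

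The Cbr2 Tppp3 and Gpnmb Cd36 states were rare in Control and common in Motolimod. The Cbr2 Tppp3 state held 3.36% of Control and 20.7% of Motolimod macrophages (149 and 915 cells), and the Gpnmb Cd36 state 2.03% and 14.8% (90 and 653 cells). The Lyve1 state, the lowest in Control, went the other way, with 4.89% and 1.70% (217 and 75 cells). With the Motolimod states weighted to the Control mix, a weighting chosen after seeing the data, the summed ratio in macrophages was 0.781. The mevalonate arm was then at 0.657, the sterol arm at 0.731, the SREBP group at 0.967, the fatty acid arm at 1.07 and Fdps at 0.543.

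Within states, 7 of the 8 sums were lower in Motolimod. The lowest ratio was in Ly6c2 monocytes, whose sum was 713 CPM in Control and 368 CPM in Motolimod (0.515, 0.483 to 0.550). Depth was closer in this state, with medians of 6880 and 5600 UMIs, and Motolimod was lower in each of the 10 depth bins. With cells taken from Leiden clusters in place of marker gates the monocyte ratio was 0.703. Of its 26 genes past the minimum, 16 were at least 1.5-fold lower, against 11.1% of all genes tested there. Fdps had 107 and 21.3 CPM (0.200, 0.155 to 0.255), Fdft1 26.3 and 6.36 CPM (0.242), Sc5d 19.8 and 5.26 CPM (0.266) and Cyp51 44.2 and 13.3 CPM (0.30). Sqle (0.212), Mvk (0.297), Idi1 (0.377) and Mvd (0.424) were also lower.

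The Gpnmb Cd36 state had a sum of 496 and 280 CPM (0.564, 0.507 to 0.628), with medians of 9085 and 4956 UMIs per cell. From Leiden clusters the ratio of this state was 0.963. Of its 22 genes past the minimum, 13 were at least 1.5-fold lower, against 12.4% of all genes. Fasn had 14.6 and 1.87 CPM (0.128), from 15 and 7 UMIs, and Fdps 59.4 and 12.3 CPM (0.207). Mvd (0.194), Fdft1 (0.247), Idi1 (0.256), Stard4, Cyp51 and Sc5d (each 0.275) followed. The Cbr2 Tppp3 state had 420 and 281 CPM (0.669, 0.603 to 0.742), and 12 of 22 genes were lower, against 11.8%. Idi1 (0.226), Stard4 (0.234), Fdps (35.7 and 11.1 CPM, 0.312), Mvd (0.355), Pmvk (0.399), Cyp51 (0.435) and Msmo1 (0.516) were the called genes whose intervals left out 1. Scd2 was higher there, with 23.3 and 37.4 CPM (1.61, 1.08 to 2.49).

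In the deeper states the difference was smaller and few genes passed the threshold, though most lay below 0 on the log2 scale. Those below 0 were 20 of 28 in Ass1 (median -0.23), 21 of 28 in Mmp12 (-0.35), 21 of 27 in Cd72 Vcam1 (-0.16) and 18 of 28 in cycling macrophages (-0.26). The medians over all genes tested were 0.04 to 0.07. Ass1 macrophages had a ratio of 0.804 (0.773 to 0.836), and 5 of 28 genes were lower, against 5.18% of all genes: Mvd (0.474), Fdft1 (0.578), Fdps (140 and 83.6 CPM, 0.598), Cyp51 (0.624) and Nsdhl (0.628). Acaca was higher in them (7.30 and 11.7 CPM, 1.60, 1.14 to 2.23). Mmp12 macrophages had a ratio of 0.761 (0.721 to 0.804), with 5 of 28 lower, against 7.58%: Dhcr7 (0.482), Sqle (0.483), Fdps (110 and 55.6 CPM, 0.507), Mvd (0.521) and Sc5d (0.585). Cd72 Vcam1 macrophages had a ratio of 0.817 (0.783 to 0.853), with 3 of 27 lower, against 5.71%: Fdft1 (0.514), Fdps (111 and 64.8 CPM, 0.582) and Pmvk (0.646). Scd2 was higher in this state (26.9 and 41.8 CPM, 1.55, 1.30 to 1.86). Cycling macrophages had 0.850 (0.818 to 0.883), with 3 of 28 lower, against 6.14%: Fdps (126 and 76.1 CPM, 0.602), Mvd (0.610) and Mvk (0.636).

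The Lyve1 state stood apart, with sums of 327 CPM in Control and 345 CPM in Motolimod (1.06, 0.865 to 1.28). It held 217 and 75 cells, 9 of the 29 genes passed the minimum, and 0 of them were lower, against 14.0% of all genes. With cells thinned to 1000 UMIs its ratio was 0.705. Fdps in the gated Lyve1 cells was 20.3 and 21.1 CPM, the lowest of the Control states. Thus in the gated states Fdps was at least 1.5-fold lower in 7 of 8.

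**Figure D4:**
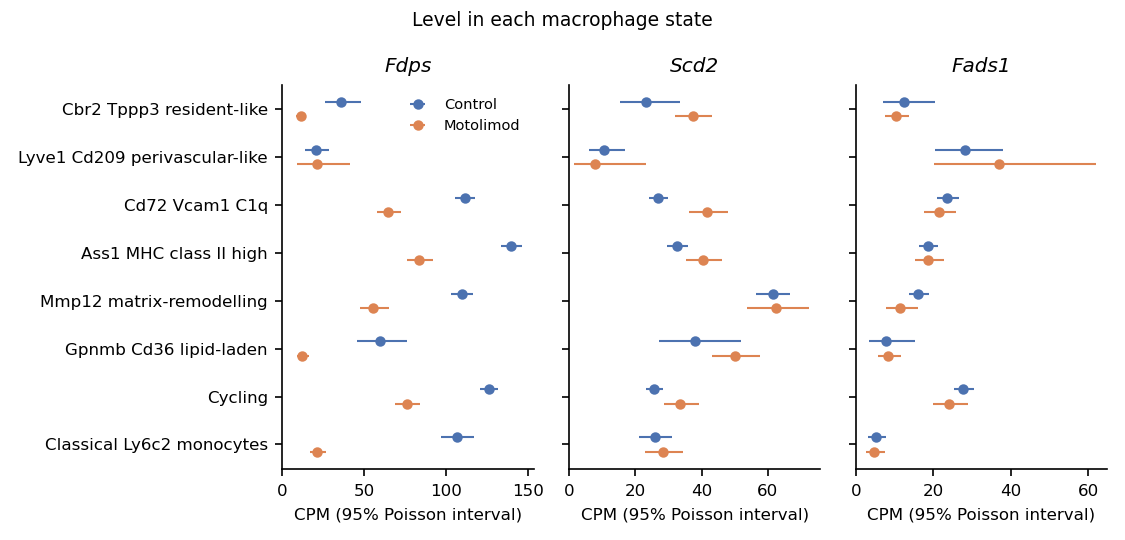
CPM (x axes, each from 0) of Fdps, Scd2 and Fads1 in 8 macrophage states, Control in blue and Motolimod in orange, with 95% Poisson intervals. Fdps lies lower in Motolimod in every state but the Lyve1 state, Scd2 peaks in the Mmp12 state in both libraries, and Fads1 peaks in the Lyve1 state.

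The genes did not share 1 pattern over the states. Over 18 pools (8 states and the cells of no state, in each of the libraries), the log2 level of Fdps correlated with that of the other 28 genes summed (Pearson r = 0.99), as did Cyp51 (0.94), Msmo1 (0.93) and Fdft1 (0.93). These pools share 2 libraries and their depth, so r is a description. Srebf1 (-0.31), Fads1 (0.19), Scd2 (0.22) and Acaca (0.24) did not follow. Scd2 was highest in Mmp12 macrophages, at 61.5 CPM in Control and 62.5 CPM in Motolimod. Fads1 was highest in Lyve1 macrophages, at 28.1 and 36.9 CPM, and lowest in Ly6c2 monocytes, at 5.12 and 4.70 CPM.

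Genes outside the 29 were read from lists set alongside them, with earlier results of these data known. The 19 other genes of cholesterol synthesis and SREBP control all passed the minimum and summed to 445 and 454 CPM in macrophages (1.02). Of these 3 were at least 1.5-fold lower in Motolimod, against 9.38% of all genes tested, and 2 were higher, against 12.8%. The lower genes included Tmem97, a sterol-responsive membrane protein (42.9 and 21.7 CPM, 0.505), and Cyb5r3, an electron donor for desaturases (86.6 and 57.4 CPM, 0.663). Mylip, a ubiquitin ligase that LXR induces, was higher (17.2 and 39.5 CPM, 2.30, 2.12 to 2.49), as was Por, which passes electrons to cytochromes P450 (46.5 and 84.7 CPM, 1.82). Of 22 other genes of fatty acid and glycerolipid synthesis, 18 passed the minimum. None of them passed the fold, against 9.38% of all genes lower and 12.8% higher. Of 16 genes of fatty acid oxidation, 14 passed the minimum. Against the same shares 0 of them were lower and 1 was higher. That gene was Cpt1a, which brings fatty acids into mitochondria (21.7 and 34.4 CPM, 1.58).

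Genes of the list for sterol efflux, LXR and storage, also chosen with earlier results known, lay mostly on the other side. Of its 16 genes 7 were at least 1.5-fold higher in Motolimod macrophages, against 12.8% of all genes tested, and 0 were lower, against 9.38%. Their median log2 ratio was 0.50, beside 0.05 over all genes, and the list summed to 4810 and 5713 CPM (1.19). Within states the median log2 ratio of the list ran from 0.12 in cycling macrophages to 0.43 in Ly6c2 monocytes. Its summed ratio was above 1 only in the Gpnmb Cd36 state (1.24) and in Ly6c2 monocytes (1.70). In the other states the sum was below 1, down to 0.821 in Mmp12 and 0.798 in cycling macrophages. Abca1, the cholesterol exporter, had 38.5 and 120 CPM (3.11, 2.96 to 3.27), and its partner Abcg1 74.0 and 125 CPM (1.70). Apoc1 (1.53 and 5.22 CPM, 3.41), Soat1, which esterifies cholesterol for storage (66.7 and 113 CPM, 1.69), and the lysosomal lipase and sterol exporter Lipa (1.58) and Npc1 (1.56) were also higher. Cyp27a1, which makes an oxysterol, had a ratio of 1.55. The LXR genes themselves, Nr1h3 (0.788) and Nr1h2 (0.919), were not past the threshold. Abca1 was at least 1.5-fold higher in each of the 8 states, from 1.56 in the Lyve1 state to 6.85 in Ly6c2 monocytes (16.3 and 111 CPM). A relation between this list and the 29 genes was not tested.

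In T cells all 4 arms had lower sums in Motolimod. The mevalonate arm had a ratio of 0.485, the sterol arm 0.584, the SREBP group 0.767 and the fatty acid arm 0.780 (0.651 to 0.934). The fatty acid ratio was 0.966 in macrophages, and the difference between the classes was not tested. Of 27 genes past the minimum, 16 were at least 1.5-fold lower, against 8.35% of all genes tested in T cells, and 11 of the 16 had an interval that left out 1. Acat2 alone was higher (1.90, 0.887 to 4.27), against 17.1% of all genes. Idi1 had 130 and 39 UMIs (0.343), Cyp51 51.7 and 18.4 CPM (0.356), Hmgcs1 49.3 and 19.6 CPM (0.396) and Fdps 97.3 and 41.8 CPM (0.429). Sqle (0.428), Msmo1 (0.435), Nsdhl (0.50) and Fdft1 (0.540) followed, and Ebp had 97.3 and 70.2 CPM (0.721). Of 18 other cholesterol genes past the minimum, 5 were at least 1.5-fold lower, against 8.35% of all genes, and included Tmem97 and Erlin1 (0.538, 0.201 to 1.31). Mylip and Acss2 were the 2 higher ones, against 17.1%.

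T cells with cell cycle genes were 23.1% of the class in Control and 13.2% in Motolimod, and 11 of 16 cell cycle genes were at least 1.5-fold lower, against 8.35% of all genes tested. Cycling T cells had 1036 and 604 CPM of the 29 genes, and the other T cells 694 and 507 CPM (0.730). The difference was smaller in T cells without cell cycle genes.

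Neutrophils, short-lived cells with few transcripts, gave 16 of the 29 genes past the minimum. Of these 13 were at least 1.5-fold lower, against 26.3% of all genes tested, and 1, Srebf1 (1.54, 0.761 to 3.54), was higher, against 21.7%. The other 13 genes had at most 15 UMIs over both libraries, with Lss at 0 in both. Stard4 had 61.6 and 7.84 CPM (0.127, 0.0882 to 0.182), Fdps 50.1 and 12.9 CPM (0.257) and Pmvk 43.3 and 9.09 CPM (0.210). Sqle had 27 UMIs in Control and 5 in Motolimod (0.0429), Cyp51 25 and 12 (0.111), Idi1 18 and 18 (0.232), Hmgcs1 38 and 47 (0.286) and Insig1 29 and 39 (0.311). Srebf2, the gene with the most UMIs here, had 81.3 and 57.9 CPM (0.712), and its share of the UMIs of the 29 genes was 15.9% and 27.3%.

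The Control neutrophil value leaned on its deepest cells. The 87 Control cells in the highest of 10 depth bins carried 504 of the 754 UMIs and stood at 717 CPM, against 246 CPM in the 237 Motolimod cells of that bin. Without that bin, left out after seeing the data, the sums were 323 and 202 CPM (0.626). Macrophage markers stood at 274 CPM in Control and 176 CPM in Motolimod neutrophils, with all 8 detected in each, and keratin and claudin genes at 14.2 and 4.86 CPM. Their part in the neutrophil values was not tested.

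Dendritic cells varied by kind. Of 28 genes past the minimum in the class, 10 were at least 1.5-fold lower, against 10.7% of all genes, and 1 was higher (Fads1, 1.64, 0.746 to 3.40), against 15.1%. Among the 10, only Fdps had an interval that left out 1, with 191 and 105 CPM (0.553, 0.449 to 0.676). In cDC2, which present antigen to helper T cells, the 29 genes summed to 1162 and 637 CPM (0.548, 0.477 to 0.628; 65 and 34 cells). Fdps in cDC2 was 235 and 55.3 CPM (0.235), and Hmgcs1 (0.410), Msmo1 (0.532), Pmvk (0.565) and Srebf2 (0.645) were lower too. In migratory dendritic cells the sums were 1024 and 691 CPM (0.675; 124 and 35 cells), with Fdps at 0.460 and Pmvk at 290 and 159 CPM (0.548).

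In cDC1, which cross-present antigen to killer T cells, the sums were 951 and 1168 CPM (1.23, 1.09 to 1.38; 80 and 18 cells). Insig1 had 20.4 and 54.0 CPM in cDC1 (2.64, 1.36 to 4.98) and Scd2 39.4 and 88.9 CPM (2.26, 1.38 to 3.61). The 16 genes of the cell cycle list summed to 553 and 1150 CPM in the dendritic class as a whole. Of them, 10 were at least 1.5-fold higher in Motolimod, against 15.1% of all genes tested. Cell cycle values of cDC1 alone are not given here. In dendritic cells with cell cycle genes (23 and 10 cells) the cholesterol and fatty acid synthesis genes summed to 1093 and 632 CPM. In the other dendritic cells they summed to 1017 and 863 CPM. The part of cycling cells in the cDC1 sums was not tested. With 18 Motolimod cells, the cDC1 values rest on few cells, and whether the kinds differ in response was not tested.

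Tumour or epithelial cells gave no gene at least 1.5-fold lower, against 6.34% of all genes tested in them, and 1 higher, against 7.5%. That gene was Acat2, with 22.1 and 36.6 CPM (1.65, 1.37 to 1.98). Fdps made up 26.4% and 26.7% of the UMIs of the 29 genes, at 541 and 558 CPM (1.03, 0.987 to 1.08). The arms had ratios of 0.999 (mevalonate), 0.939 (sterol), 1.05 (SREBP) and 1.21 (fatty acid, 1.15 to 1.28). Among genes chosen after their values were seen, Hmgcs1 had 189 and 127 CPM (0.671, 0.611 to 0.736). Of the fatty acid genes Scd2 had 108 and 137 CPM (1.28), Scd1 42.5 and 56.3 CPM (1.32), Acaca a ratio of 1.36 and Fads2 one of 1.40. Motolimod gave 75 tumour cells, and cells with cell cycle genes were 45.6% of the class in Control and 58.7% in Motolimod.

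**Figure D5:**
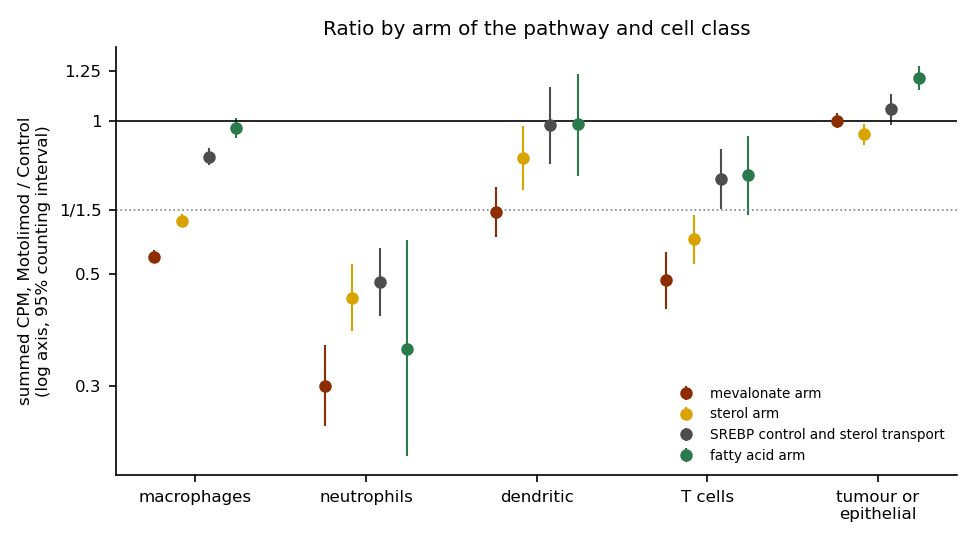
Ratio of summed CPM, Motolimod over Control (y axis, log scale), for the 4 role groups (colours) in 5 cell classes. Points are ratios with 95% counting intervals, the solid line marks 1 and the dotted line 1/1.5. The mevalonate arm is the lowest point in macrophages (0.540), neutrophils (0.301), dendritic cells (0.662) and T cells (0.485), and in tumour cells the fatty acid arm is the highest (1.21).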

How the data were processed

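The authors deposited raw UMI counts per gene and barcode for each library, per the file headers, made with Cell Ranger and the mm10 build (version 5.0.1 per the submitters' processing notes, 7.1.0 per the file headers). The setting for intron reads is not given in the sources used here. Gene positions came from GENCODE M21. The genes and lists were chosen with earlier results of these data known.

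Barcodes were kept from 300 genes and 800 UMIs upwards if no more than 10% of UMIs were mitochondrial. Classes were gated per cell on summed markers per 10000 UMIs with at least 2 markers detected, at thresholds set after seeing the data (macrophage 10, monocyte 10, neutrophil 30, dendritic cell 4, T cell 5, tumour or epithelial cell 3), and droplets of 6 other lineages were set aside likewise. Macrophages and monocytes formed 1 class. A macrophage took the state whose markers were most enriched over the class mean, by at least 1.5-fold with at least 2 UMIs, and otherwise no state. Cells were called cycling at 5 or more cell cycle UMIs per 10000. No doublet caller was run, and droplets past the gates of more than 1 lineage were left out.

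CPM carry exact Poisson intervals, ratios exact conditional binomial intervals and shares Clopper-Pearson intervals, all at 95% and for counting error only. Genes needed at least 20 UMIs over both libraries. Named genes were all 29 in macrophages, elsewhere up to 8 per class or state past 1.5-fold with an interval that left out 1, and from the other lists up to 6 past 1.5-fold in macrophages; others named were chosen after their values were seen. Some genes of the other lists are not reported here. The calculation was tested on simulated data. Python 3.11.15 was used with numpy 2.4.6, scipy 1.17.1, pandas 2.3.3, scanpy 1.11.5, leidenalg 0.10.2 and matplotlib 3.10.9.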

Additional observations from a re-analysis of the deposited data

How the results depend on the processing

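No result changed from a called change to one in the opposite direction. The summed ratio stayed below 1 under all 11 alternatives in macrophages (0.559 to 0.814) and neutrophils (0.344 to 0.626) and under all 10 in T cells (0.581 to 0.797). In dendritic cells it ranged from 0.656 to 1.03, and in tumour or epithelial cells from 0.944 to 1.14.

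With cells thinned to 1000 UMIs the ratios were 0.559 in macrophages, 0.598 in neutrophils, 0.929 in dendritic cells, 0.797 in T cells and 1.14 in tumour cells. Thinning left 27, 11, 4, 9 and 18 genes past the minimum in these classes, of which 23, 5, 1, 3 and 2 were at least 1.5-fold lower. Shares over all genes under the alternatives are not given here, so these counts and those that follow cannot be set against a background. The counts of higher genes were 2 in neutrophils, 0 in dendritic cells and 4 in tumour cells. Weighting Motolimod cells to the Control mix of depths gave 0.814 in macrophages, 0.727 in T cells, 1.05 in tumour cells and 1.03 in dendritic cells, where bins of 3 and 4 Motolimod cells weighed in. Under this weighting 3 genes were lower in macrophages, 5 lower and 5 higher in dendritic cells, 10 lower and 2 higher in T cells, and 1 lower and 2 higher in tumour cells; in neutrophils 13 were lower and 0 higher. Without bins of under 5 cells, an alternative chosen after seeing the data, the dendritic ratio was 0.656. Averaging over cells gave 0.590 in macrophages, 0.554 in neutrophils and 0.708 in T cells. Without cells with cell cycle genes the ratios were 0.647 in macrophages, 0.849 in dendritic cells, 0.730 in T cells and 0.944 in tumour cells. Leiden clusters gave 0.609 in neutrophils and 0.931 in dendritic cells, and no cluster was led by the Cd72 Vcam1 markers. The stricter cell filter (1000 genes, 2000 UMIs, 5% mitochondrial) gave 0.344 in neutrophils.

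Median-of-ratios scaling moved the median of all genes by at most 0.11 on the log2 scale (dendritic cells) and gave 0.648 in macrophages, 0.730 in dendritic cells and 0.978 in tumour cells, where 1 gene was then lower. Totals without mitochondrial and ribosomal protein genes gave 0.655 in macrophages. Without the gene with the most UMIs the ratio was 0.718 in macrophages (Fdps) and 0.358 in neutrophils (Srebf2). With mixed droplets kept, 0 genes were higher in neutrophils and in T cells, and in dendritic cells 2 were higher and 5 lower. Among alternatives chosen after seeing the data, the Control mix of states gave 0.781 in macrophages, and leaving out the deepest of 10 depth bins gave 0.626 in neutrophils. The cause of these shifts was not tested. No paired analysis was possible because each group has 1 library, and for the same reason no replicate could be left out.

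The values in dendritic cells, cDC1 and Lyve1 macrophages rest on few Motolimod cells (87, 18 and 75).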

Other observations

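Genes of sterol handling outside the 29 were also read in the other classes, and those named here were chosen after their values were seen. Mylip, a ubiquitin ligase that LXR induces, was at least 1.5-fold higher in Motolimod in 4 of the 5 classes. Its level was 8.39 CPM in Control and 26.8 CPM in Motolimod T cells (3.20, interval 2.00 to 5.27), 27.8 and 69.9 CPM in neutrophils (2.52) and 11.1 and 20.5 CPM in dendritic cells (1.85). Abcg1, which exports cholesterol, was higher in T cells (12.4 and 33.7 CPM, 2.72) and dendritic cells (28.5 and 60.7 CPM, 2.13), and in tumour cells on 37 and 13 UMIs (2.64, 1.29 to 5.08). Apoe, an abundant macrophage transcript, was higher in T cells (30.9 and 82.4 CPM) and tumour cells (8.55 and 21.3 CPM) and lower in dendritic cells (44.2 and 26.1 CPM). Apoe stood at 2303 and 2886 CPM in macrophages, and the part of free macrophage RNA in the other classes was not tested.

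In neutrophils 7 of the 12 fatty acid oxidation genes past the minimum were at least 1.5-fold lower and 1 was higher, beside 26.3% and 21.7% of all genes tested there. Acadm, a medium-chain acyl-CoA dehydrogenase, had 27.1 and 3.92 CPM (0.145) and Etfa, which takes its electrons, 27.8 and 5.96 CPM (0.215). Of 14 other genes of fatty acid and glycerolipid synthesis 6 were lower and 3 higher, and Dgat1, which completes triglycerides, had 454 and 259 CPM (0.569, 0.520 to 0.623). In T cells, Tmem97 had 51.3 and 16.1 CPM (0.314).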
